A study of Mus musculus with 10 samples.

Results

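The Hox genes are homeobox transcription factors that lie in 4 clusters in the mouse genome. The deposited table was searched for every gene name made of Hox, a cluster letter from a to d and a paralogue number, with antisense and predicted genes left out. The search returned 39 genes of 34162 gene names, of which 11 belonged to Hoxa, 10 to Hoxb, 9 to Hoxc and 9 to Hoxd. The family was chosen for study because of measured values in these same libraries, in which Hoxa7 had been among the genes lower in metastatic c-Myc-high cells. Differences between metastatic and primary cells are therefore given as a description, without p-values for single Hox genes. Where Hox genes are named as called in that contrast, the call is part of the description and no test of the family.

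RNA had been sequenced from mouse melanoma cells of a mixed C57BL/6:SV129 background, taken from lymph node metastases or from primary tumours of the skin. Within each site, flow cytometry had separated GFP-positive cells, called c-Myc-high, from c-Myc-low cells, which lacked GFP. The 10 libraries comprised 3 of metastatic c-Myc-high cells (GFP-positive, lymph node), 3 of metastatic c-Myc-low cells (GFP-negative, lymph node), 2 of primary c-Myc-high cells (GFP-positive, skin) and 2 of primary c-Myc-low cells (GFP-negative, skin). The labels name no treatment, age, driver mutation or promoter for the GFP signal, and whether each replicate was a different animal is not stated. The p-values below therefore measure the spread between these libraries, which may be technical.

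Within each Hox cluster the genes stand in the order in which they are used along the head-to-tail axis of the embryo. Low paralogue numbers serve the hindbrain and neck, middle numbers the chest and trunk, and high numbers the lumbar, sacral, tail and distal limb regions. Adult skin cells retain part of this positional pattern, in fibroblasts above all, and Polycomb and trithorax complexes hold the silent and active states of the clusters. Hox proteins bind DNA together with TALE homeodomain partners of the Pbx, Meis and Pknox families.

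Libraries held between 1603012 and 6844328 estimated counts, so 3 counts, taken here as the limit that a count of 0 allows, correspond to between 0.438 and 1.87 CPM (counts scaled to a library total of 1000000). This limit and all intervals cover counting error only. Some features of the libraries bear on every Hox value. The 15 salivary gland genes listed summed to 185619, 149 and 46815 CPM in metastatic c-Myc-high replicates 1, 2 and 3. Myc itself did not separate the sorted classes, at 124, 303 and 173 CPM in metastatic c-Myc-high against 132, 306 and 363 CPM in metastatic c-Myc-low cells, and at 818 and 69.5 CPM in primary c-Myc-high against 196 and 332 CPM in primary c-Myc-low cells. All 12 melanocyte markers were detected in every library but primary c-Myc-high replicate 1, which had 11.

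Most of the 39 genes held under 10 counts in each metastatic library, as most also did in each primary c-Myc-high library. Summed over the 39 genes, Hox RNA stood at 0.474, 1.65 and 5.84 RPKM (the deposited level per transcript length and library size, summed over a gene's transcripts) in metastatic c-Myc-high libraries, against 132 and 10.2 RPKM in primary c-Myc-high libraries. The c-Myc-low libraries held 3.99, 2.48 and 1.94 RPKM in metastases, against 36.4 and 13.8 RPKM in primary tumours. No metastatic library reached the lowest primary library. A lower level in sorted cells can mean fewer cells of one type or less RNA per cell, and these cannot be told apart here. Hoxa7 made up a large share of the highest value: without it, primary c-Myc-high replicate 1 held 38.0 RPKM and replicate 2 held 8.26 RPKM. Metastatic c-Myc-high libraries then held between 0.474 and 5.79 RPKM, so the order of the sites was the same without Hoxa7.

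**Figure D1:**
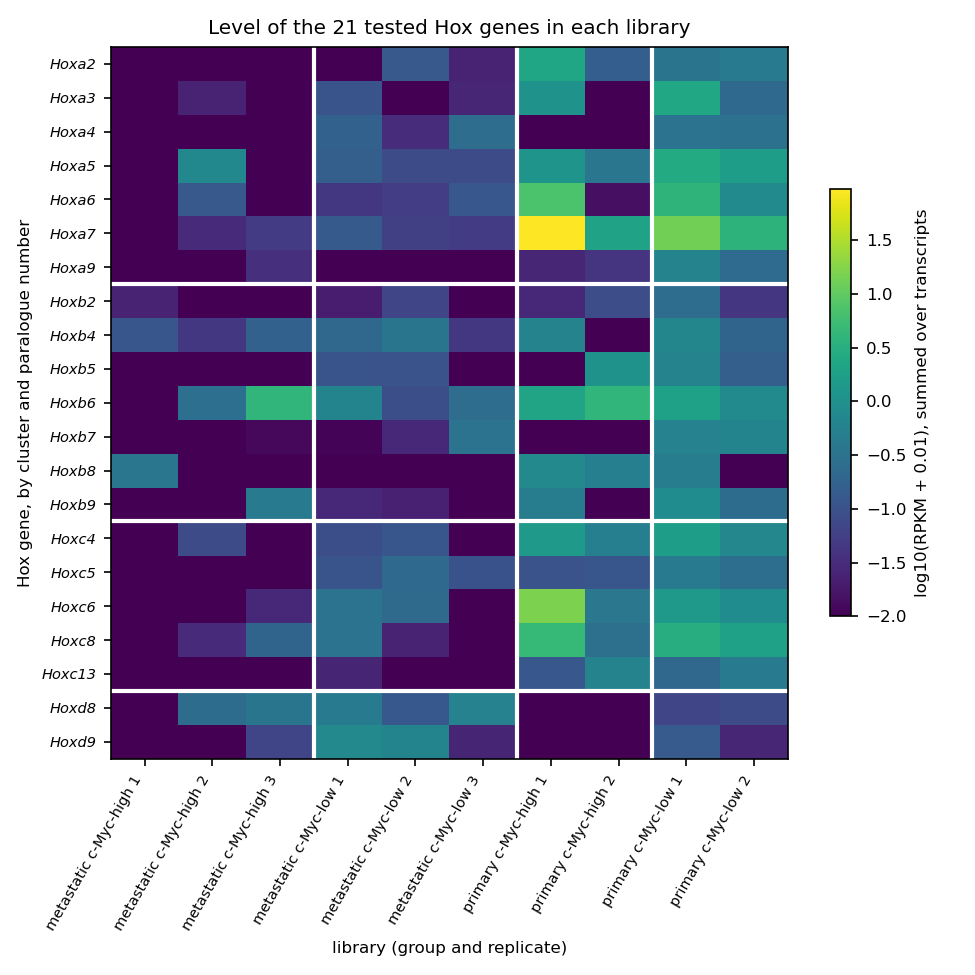
Level of each of the 21 Hox genes that passed the filter on low counts (rows, by cluster and paralogue number) in each of the 10 libraries (columns), as log10 of RPKM plus 0.01. The highest level is that of Hoxa7 in primary c-Myc-high replicate 1, and the metastatic c-Myc-high columns are mostly at the floor.

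The number of Hox genes seen at all was lower in metastatic libraries of the c-Myc-high class, and in both classes at equal depth. At least 1 count was found for 3, 11 and 14 of the 39 genes in metastatic c-Myc-high libraries, against 20 and 16 in primary c-Myc-high libraries. The c-Myc-low libraries had 22, 25 and 15 genes in metastases, against 25 and 24 in primary tumours. One metastatic c-Myc-low library thus reached the number of a primary one, but deeper libraries detect more genes, so the expected number at an equal depth of 1500000 counts was also calculated. It was 2.33, 7.41 and 12.6 genes in metastatic c-Myc-high and 17.4 and 15.9 in primary c-Myc-high libraries. In c-Myc-low libraries it was 15.8, 15.01 and 9.90 genes in metastases and 23.4 and 22.3 genes in primary tumours. At equal depth every metastatic library therefore showed fewer Hox genes than the primary libraries of its own class. Over all genes, the same depth gave between 13924 and 16974 genes in metastatic c-Myc-high libraries, against 13025 and 13280 genes in primary c-Myc-high libraries, so the low Hox count did not go with a low number of genes overall. Few Hox genes were well covered in metastatic cells: at least 10 counts were reached by 2, 3 and 4 genes in metastatic c-Myc-high libraries against 13 and 9 in primary c-Myc-high libraries, and by 5, 3 and 3 genes in metastatic c-Myc-low libraries against 21 and 16 in primary c-Myc-low libraries.

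**Figure D2:**
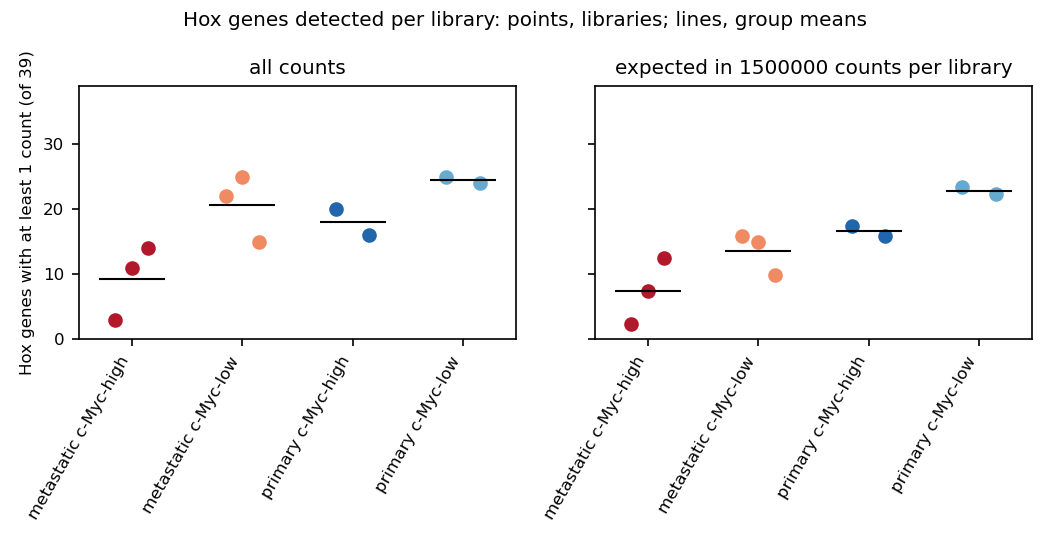
Number of the 39 Hox genes with at least 1 count in each library, from all counts and at an equal depth of 1500000 counts. At equal depth the metastatic c-Myc-high libraries lie between 2.33 and 12.6 genes and the primary c-Myc-high libraries at 15.9 and 17.4 genes.

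The 5′ flanks are shown for Hoxa5, Hoxa6 and Hoxa7, the 3 Hoxa genes with the highest mean RPKM, and for Hoxd8 and Hoxd9, the Hoxd genes that passed the filter on low counts and were not lower in metastatic cells. The stretches are RefSeq sequence of the mouse build GRCm38.p6, upstream of the start that RefSeq gives the gene and outside annotated untranslated regions, written 5′ to 3′ along the gene. They are 250 bases for Hoxa5 (chr6:52204588-52204837, minus strand), 200 bases for Hoxa6 (chr6:52208723-52208922, minus strand), 112 bases for Hoxa7 (chr6:52218712-52218823, minus strand), 250 bases for Hoxd8 (chr2:74704365-74704614, plus strand) and 214 bases for Hoxd9 (chr2:74697513-74697726, plus strand). Capitals mark the CCAAT box on either strand.
Hoxa5: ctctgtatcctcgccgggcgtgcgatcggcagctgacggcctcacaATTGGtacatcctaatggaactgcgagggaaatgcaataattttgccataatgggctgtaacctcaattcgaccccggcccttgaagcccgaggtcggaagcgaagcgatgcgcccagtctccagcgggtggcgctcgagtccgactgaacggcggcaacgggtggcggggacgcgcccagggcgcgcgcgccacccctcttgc
Hoxa6: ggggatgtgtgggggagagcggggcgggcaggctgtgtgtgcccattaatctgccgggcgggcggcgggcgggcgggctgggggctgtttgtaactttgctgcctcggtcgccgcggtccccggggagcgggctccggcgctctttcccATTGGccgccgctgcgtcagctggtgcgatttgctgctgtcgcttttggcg
Hoxa7: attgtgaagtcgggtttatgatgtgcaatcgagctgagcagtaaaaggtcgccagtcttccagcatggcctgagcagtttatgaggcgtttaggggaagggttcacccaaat
Hoxd8: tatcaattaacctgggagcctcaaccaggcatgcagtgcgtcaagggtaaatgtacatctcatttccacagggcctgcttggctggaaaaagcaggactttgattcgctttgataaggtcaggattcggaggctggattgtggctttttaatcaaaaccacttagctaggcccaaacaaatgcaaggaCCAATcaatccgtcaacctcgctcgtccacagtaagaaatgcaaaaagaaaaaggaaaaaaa
Hoxd9: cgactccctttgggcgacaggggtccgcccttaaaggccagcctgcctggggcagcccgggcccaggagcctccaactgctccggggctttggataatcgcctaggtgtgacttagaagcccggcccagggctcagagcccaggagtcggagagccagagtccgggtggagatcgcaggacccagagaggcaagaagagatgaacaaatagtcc
The CCAAT box, bound by the general factor NF-Y, was present in the shown flanks of Hoxa5, Hoxa6 and Hoxd8, so it was found in genes that were lower and in a gene that was not lower in metastatic cells. It was not in the stretches of Hoxa7 and Hoxd9, which end 138 and 36 bases before the RefSeq start. GENCODE starts differ: its Hoxd9 begins next to the printed stretch, and its Hoxa7 spans the printed stretch because an annotated transcript starts farther upstream.

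Hoxa7, a trunk paralogue, was the most abundant Hox gene of the study, with a mean over the 10 libraries of 11.3 RPKM. The gene lies on the minus strand of chromosome 6 (GRCm38, 52214491 to 52221854). It stood at 0, 0.196 and 0.338 CPM in metastatic c-Myc-high libraries, against 702 and 28.1 CPM in primary c-Myc-high libraries. In c-Myc-low cells, Hoxa7 stood at 0.727, 0.469 and 0.479 CPM in metastases, against 115 and 59.96 CPM in primary tumours. Every metastatic library held under 5 counts of it, so its level there was at the edge of detection, whereas the primary libraries held between 45.1 and 3563.6 counts. The summed counts of metastatic c-Myc-high cells were 3.08e+03-fold lower than those of primary c-Myc-high cells (95% counting interval 852 to 2.54e+04), and those of metastatic c-Myc-low cells were 179-fold lower than those of primary c-Myc-low cells. Both folds rest on the higher primary library: without primary c-Myc-high replicate 1 the first was 159.98-fold (interval 41.8 to 1361), and without primary c-Myc-low replicate 1 the second was 111-fold. Without metastatic c-Myc-high replicate 1 the first was 1883-fold (interval 521 to 15557), and without replicate 3 it was 4731-fold (interval 849 to 186905). The fitted log2 differences were -10.97 ± 1.46 and -7.40 ± 1.23 (SE; n = 3 against 2 in each class). Metastatic c-Myc-high replicate 2, the library with little salivary gland RNA, was at the edge of detection like the other replicates of its group. All 3 values lie below the level of 3 counts, so these replicates cannot be ranked. The part of salivary gland RNA in the Hoxa7 level was not tested. In primary c-Myc-high cells the 2 replicates themselves differed widely, and so did the isoforms: replicate 1 held 1876 counts of the transcript ENSMUST00000048715 and 1688 of ENSMUST00000153280, while replicate 2 held 30.5 and 0. An exon of Hoxa7 overlaps the antisense gene Hoxaas3, and since the strand setting of the counting is not given in the sources used here, reads of the pair cannot be told apart.

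Hoxa6, the neighbouring trunk paralogue, had a mean level of 1.19 RPKM. It stood at 0, 0.599 and 0 CPM in metastatic c-Myc-high libraries, against 26.4 and 0.0494 CPM in primary c-Myc-high libraries, so a single primary library carried the signal of its group. Hoxa6 in c-Myc-low cells showed no overlap, at 0.25, 0.219 and 0.678 CPM in metastases against 20.8 and 7.14 CPM in primary tumours. Hoxa5, which in the mouse patterns the neck-to-chest boundary and the developing airways, stood at 0, 6.47 and 0 CPM in metastatic c-Myc-high against 7.88 and 8.16 CPM in primary c-Myc-high libraries. In c-Myc-low libraries Hoxa5 stood at 1.16, 0.683 and 0.846 CPM in metastases, against 21.2 and 25.8 CPM in primary tumours. The groups did not overlap in either class, although metastatic c-Myc-high replicate 2 came close to the primary libraries. The summed counts of Hoxa5 were 3.23-fold lower in metastatic than primary c-Myc-high cells and 25.2-fold lower in metastatic than primary c-Myc-low cells. The first was 1.98-fold without metastatic c-Myc-high replicate 1 and at least 18.7-fold without replicate 2, which held all of the metastatic c-Myc-high counts. Of the other Hoxa genes, Hoxa2, a hindbrain and second-arch gene, was at 0 in all metastatic c-Myc-high libraries, against 19.3 and 4.22 CPM in primary c-Myc-high libraries, which is at least 59.7-fold lower when 3 counts are allowed over the group. That limit was 16.6-fold without primary c-Myc-high replicate 1 and 36.5-fold and 37.0-fold when replicate 1 or replicate 2 of the metastatic c-Myc-high group was left out.

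Hoxc genes of the trunk followed Hoxa7. Hoxc6, a thoracic paralogue, had the second-highest mean level at 1.86 RPKM and lies on the plus strand of chromosome 15 (102998257 to 103011881). It stood at 0, 0 and 0.142 CPM in metastatic c-Myc-high libraries, against 68.6 and 6.16 CPM in primary c-Myc-high libraries. Rounded to whole counts, metastatic c-Myc-high cells held none, which is at least 204-fold lower than primary c-Myc-high cells. The limit was 23.7-fold without primary c-Myc-high replicate 1, and 125-fold and 126-fold when replicate 1 or replicate 2 of the metastatic c-Myc-high group was left out. Hoxc6 among c-Myc-low cells stood at 1.02, 0.947 and 0 CPM in metastases against 7.23 and 11.1 CPM in primary tumours, 11.7-fold lower by summed counts. The groups were separate in both classes, and primary c-Myc-high replicate 1 was the highest library by far.

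Hoxc8, known in the mouse for its role in rib identity, stood at 0, 0.231 and 3.77 CPM in metastatic c-Myc-high libraries, against 39.3 and 8.13 CPM in primary c-Myc-high libraries. Hoxc8 in c-Myc-low cells had 2.99, 0.171 and 0 CPM in metastases, against 29.0 and 35.0 CPM in primary tumours. By summed counts it was 33.0-fold lower in metastatic than primary c-Myc-high cells and 27.1-fold lower in metastatic than primary c-Myc-low cells, with no overlap in either class. The first fold was 8.40 without primary c-Myc-high replicate 1, 20.2 without metastatic c-Myc-high replicate 1, and 279 (interval 49.6 to 11079) without metastatic c-Myc-high replicate 3. The second was 329 (interval 58.5 to 13017) without metastatic c-Myc-low replicate 1. Hoxc4, of the neck and upper chest, stood at 0, 0.693 and 0 CPM in metastatic c-Myc-high against 10.04 and 12.5 CPM in primary c-Myc-high libraries. Its c-Myc-low values were 0.666, 1.09 and 0 CPM in metastases and 14.3 and 11.1 CPM in primary tumours. The replicates of both primary groups lay closer together for Hoxc4 than for Hoxa7 or Hoxc6. Hoxc13, which drives keratin genes of the hair shaft, is the most posterior member tested. It stood at 0, 0 and 0.00187 CPM in metastatic c-Myc-high against 0.981 and 18.1 CPM in primary c-Myc-high libraries, and at 0.166, 0 and 0 CPM in metastatic c-Myc-low against 2.17 and 8.74 CPM in primary c-Myc-low libraries.

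Hoxb differed from Hoxa and Hoxc in that 1 metastatic library kept a substantial level. Hoxb6, a trunk and flank paralogue, had a mean level of 1.43 RPKM. It stood at 0, 2.21 and 58.3 CPM in metastatic c-Myc-high libraries, against 11.9 and 78.2 CPM in primary c-Myc-high libraries. The high metastatic library was replicate 3, where 154 counts came from the transcript ENSMUST00000000704, and this replicate is 1 of the 2 libraries rich in salivary gland RNA. Whether that RNA carries the Hoxb6 counts was not tested. Hoxb6 in c-Myc-low cells stood at 4.15, 0.752 and 2.45 CPM in metastases against 12.7 and 10.6 CPM in primary tumours, without overlap.

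Hoxb4, known in the mouse for its effect on blood stem cell expansion, overlapped between the sites in both classes. It stood at 2.57, 0.693 and 6.06 CPM in metastatic c-Myc-high libraries, against 9.19 and 0 CPM in primary c-Myc-high libraries. Hoxb4 in c-Myc-low cells stood at 3.49, 7.06 and 0.844 CPM in metastases against 11.6 and 6.09 CPM in primary tumours. By summed counts it was 2.67-fold lower in metastatic than primary c-Myc-high cells and 2.48-fold lower in metastatic than primary c-Myc-low cells. Without primary c-Myc-high replicate 1 it was at least 1.41-fold higher in metastatic c-Myc-high cells, and without metastatic c-Myc-high replicate 3 it was 4.40-fold lower. The c-Myc-low fold was 4.23 without metastatic replicate 2 and 1.52 without primary replicate 1. Leukocyte RNA, given below, was higher in the metastatic libraries, and its part in the Hoxb4 level was not tested. Hoxb8, a trunk gene also used to hold myeloid progenitors in culture, stood at 5.42, 0 and 0 CPM in metastatic c-Myc-high against 3.35 and 12.5 CPM in primary c-Myc-high libraries, and at 0 CPM in the 3 metastatic c-Myc-low libraries against 5.07 and 0 CPM in the primary c-Myc-low libraries.

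The Hoxd genes ran the other way or were low everywhere. Hoxd8, a trunk paralogue on the plus strand of chromosome 2 (74704615 to 74707933), stood at 0, 3.22 and 2.55 CPM in metastatic c-Myc-high libraries, against 0 and 0 CPM in primary c-Myc-high libraries. That is at least 4.10-fold higher by summed counts, a limit of 6.71 and 2.20 when replicate 1 or replicate 2 of the metastatic group was left out, and no limit can be set without primary c-Myc-high replicate 1. In c-Myc-low libraries Hoxd8 stood at 3.54, 1.19 and 3.38 CPM in metastases against 0.438 and 0.641 CPM in primary tumours, 5.38-fold higher. It was the single tested Hox gene for which every metastatic c-Myc-low library lay above every primary c-Myc-low library. Of all genes tested, 28.2% did so, which means that this order does not set Hoxd8 apart from other genes. Hoxd9, its posterior neighbour (74697727 to 74700208), which acts in the lumbosacral spine and the limb, stood at 0, 0 and 1.14 CPM in metastatic c-Myc-high against 0 and 0 CPM in primary c-Myc-high libraries. In metastatic c-Myc-low libraries Hoxd9 stood at 6.74, 6.75 and 0.211 CPM, against 1.17 and 0.302 CPM in primary c-Myc-low libraries, so 2 of 3 metastatic libraries were above and 1 below both primary ones. Hoxd3, which patterns the first neck vertebra in the mouse, stood at 0, 1.22 and 0 CPM in metastatic c-Myc-high against 1.85 and 0.0432 CPM in primary c-Myc-high libraries, and at 1.41, 0.355 and 0.199 CPM in metastatic c-Myc-low against 0.161 and 0 CPM in primary c-Myc-low libraries. Hoxd3 and Hoxd4 overlap in the annotation, so these counts may be split between them.

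Taken by cluster, the sums showed which parts of the family differed. Hoxa summed to 0, 0.847 and 0.371 RPKM in metastatic c-Myc-high against 106 and 2.44 RPKM in primary c-Myc-high libraries, and to 0.633, 0.315 and 0.525 RPKM in metastatic c-Myc-low against 23.7 and 7.47 RPKM in primary c-Myc-low libraries. Hoxc summed to 0, 0.091 and 0.198 RPKM in metastatic c-Myc-high against 21.7 and 1.93 RPKM in primary c-Myc-high libraries, and to 0.846, 0.600 and 0.091 RPKM in metastatic c-Myc-low against 6.84 and 4.18 RPKM in primary c-Myc-low libraries. These 2 of the 4 clusters were lower in every metastatic than in every primary library. Hoxb did not separate over all libraries, because metastatic c-Myc-high replicate 3 held 4.81 RPKM and the other 2 replicates 0.474 and 0.340 RPKM, against 4.08 and 5.77 RPKM in primary c-Myc-high libraries. It was separate in c-Myc-low cells, at 1.10, 0.677 and 0.730 RPKM in metastases against 5.65 and 2.02 RPKM in primary tumours. Without metastatic c-Myc-high replicates 1 and 3, a choice made after the data were seen, 3 clusters were lower in every metastatic library. Hoxd summed to 0, 0.373 and 0.456 RPKM in metastatic c-Myc-high against 0.428 and 0.033 RPKM in primary c-Myc-high libraries, and to 1.41, 0.884 and 0.594 RPKM in metastatic c-Myc-low against 0.217 and 0.092 RPKM in primary c-Myc-low libraries. In c-Myc-low cells Hoxd was thus above the primary level in all 3 metastatic libraries.

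**Figure D3:**
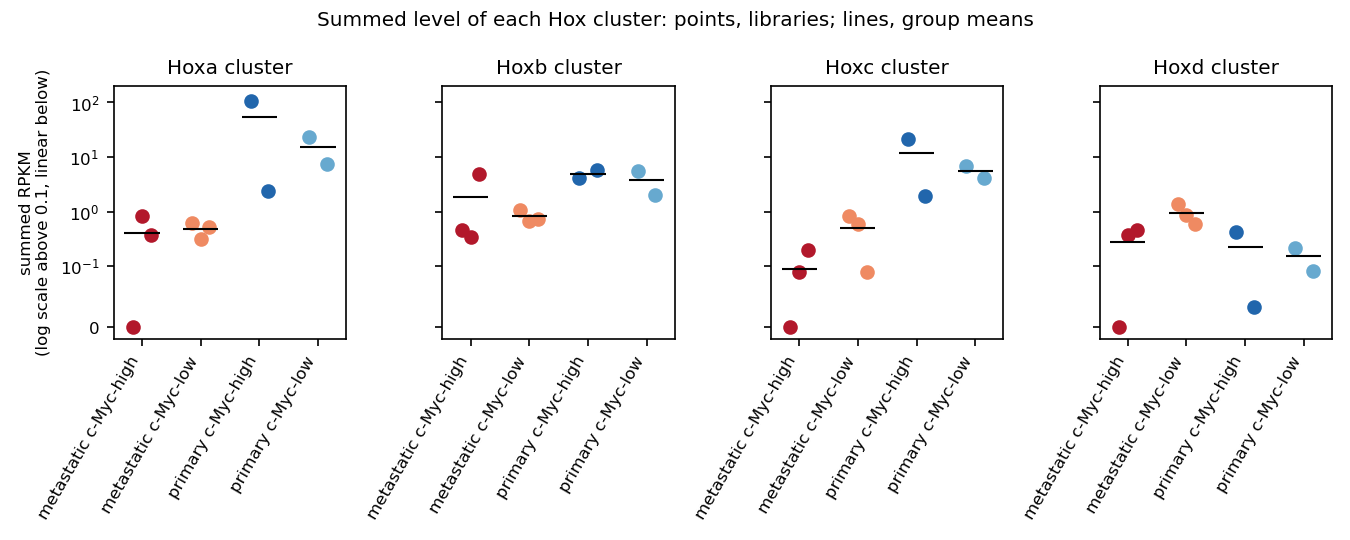
RPKM summed over each Hox cluster, 1 point per library, on an axis that is logarithmic above 0.1 and linear below it. Hoxa and Hoxc separate metastatic from primary libraries in both c-Myc classes, Hoxb overlaps through metastatic c-Myc-high replicate 3 at 4.81 RPKM, and Hoxd is higher in the metastatic than the primary c-Myc-low libraries.

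By position along the body axis, paralogues 4 to 8, the 15 genes of the chest and trunk, held most of the Hox RNA in every library. Their sum was 0.459, 1.48 and 4.92 RPKM in metastatic c-Myc-high against 127 and 9.22 RPKM in primary c-Myc-high libraries, and 2.67, 1.41 and 1.73 RPKM in metastatic c-Myc-low against 30.9 and 11.9 RPKM in primary c-Myc-low libraries. As a share of the Hox total, this class took 96.9%, 89.6% and 84.3% in metastatic c-Myc-high and 96.2% and 90.7% in primary c-Myc-high libraries. The share was 66.8%, 57.1% and 89.1% in metastatic c-Myc-low and 84.8% and 86.2% in primary c-Myc-low libraries, so it was lowest in metastatic c-Myc-low replicates 1 and 2. There the 16 posterior paralogues 9 to 13 took 20.3% and 30.8%, with Hoxd9 the main one. Paralogues 4 to 8 were the 1 class of 3 whose summed RPKM was lower in every metastatic than in every primary library. The 8 anterior paralogues 1 to 3 summed to at most 0.515 RPKM in a metastatic library, against 3.92 and 0.224 RPKM in primary c-Myc-high and 3.63 and 0.807 RPKM in primary c-Myc-low libraries.

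Of the 39 genes, 21 passed the filter on low counts, which a gene can pass through its level in 1 group alone, and 18 did not. Among the 21, 8 (38.1%) were lower in every metastatic than every primary c-Myc-high library, against 8.18% of all 16805 genes tested. For c-Myc-low cells the number was 15 (71.4%), against 16.1% of all genes, and 1 gene, Hoxd8, was higher in every metastatic library, where 28.2% of all genes were. Across both classes 7 genes (33.3%), Hoxa2, Hoxa5, Hoxa7, Hoxc4, Hoxc6, Hoxc8 and Hoxc13, were lower in all 6 metastatic than in all 4 primary libraries, against 3.98% of all genes. In the edgeR quasi-likelihood fit over all genes, at a Benjamini-Hochberg adjusted p under 0.05, Hoxa7 and Hoxc6 were called lower in metastatic than primary c-Myc-high cells, where 2.31% of all genes were, and no Hox gene was called higher, where 1.65% were. Between metastatic and primary c-Myc-low cells Hoxa7 was called lower, where 1.74% of all genes were, and none higher, where 0.375% were. The Hoxc6 call was lost without metastatic c-Myc-high replicate 1 or 2, primary c-Myc-high replicate 1 or primary c-Myc-low replicate 1, and the c-Myc-low call of Hoxa7 was lost without metastatic c-Myc-low replicate 2 or 3. These counts and single-gene calls belong to the contrast by which the family was chosen. They are a description of it and no independent test.

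The fitted log2 differences between metastatic and primary cells had a median of -4.22 over the 21 Hox genes in the c-Myc-high class, beside 0.38 over all genes, and of -4.60 in the c-Myc-low class, beside 0.10. With genes at 0 in a group set to the bound that 3 counts give, the medians were -4.23 over the 17 Hox genes with a value, beside 0.36, and -4.25 over 21, beside 0.10. The sign was negative for 16 and positive for 3 Hox genes in the c-Myc-high class and negative for 19 and positive for 2 in the c-Myc-low class. Hoxa4 and Hoxb7, rounded to whole counts, had none in either c-Myc-high group. The medians and signs belong to the contrast by which the family was chosen. They cover only genes that passed the filter, which a level in 1 group alone allows, and are a description. The single-gene errors were wide, since the common biological coefficient of variation was 0.876. Without primary c-Myc-high replicate 1 the uncalled c-Myc-high difference was 3.38 for Hoxa6 and 7.31 for Hoxb4, and without primary c-Myc-high replicate 2 it was 0.999 for Hoxb6, on the log2 scale.

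**Figure D4:**
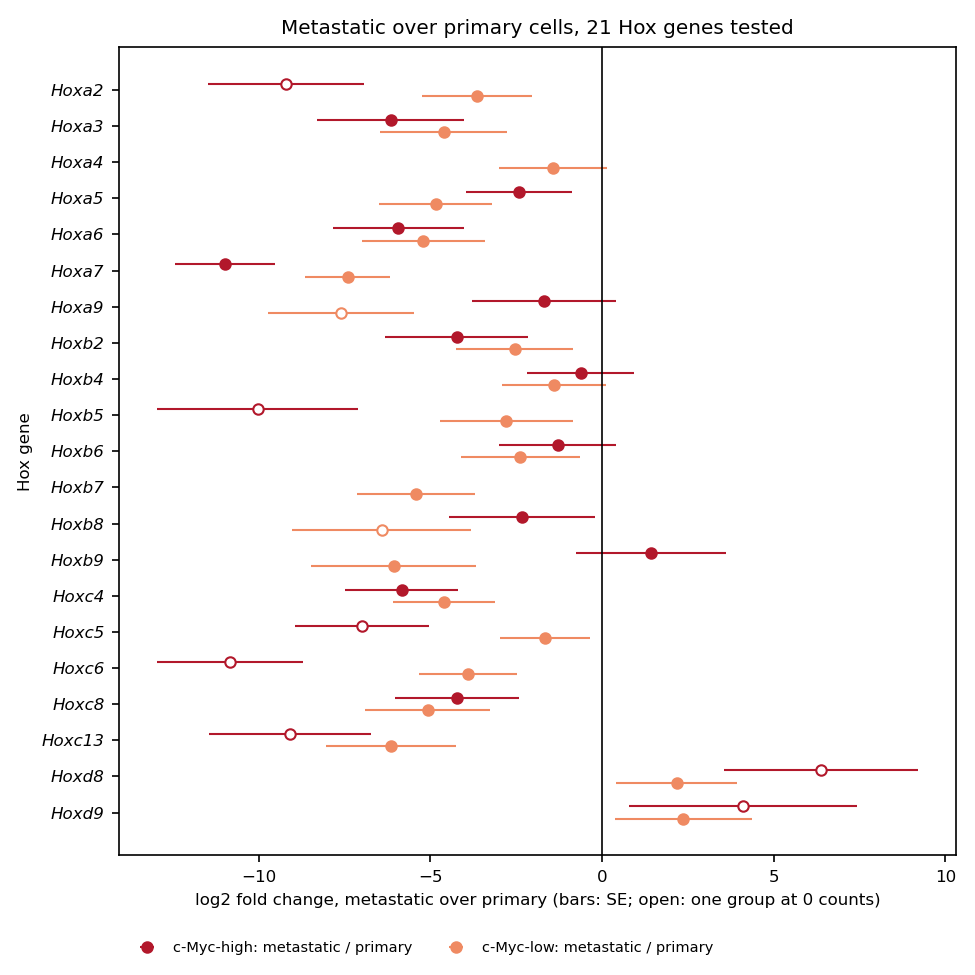
Fitted log2 difference, metastatic over primary, with its SE for the 21 tested Hox genes in both sorted classes. Open symbols have a group with 0 counts and are not measured folds. Most points lie below 0, Hoxa7 is at -10.97 and -7.40, and Hoxd8 is above 0 in both classes.

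Among the 18 untested genes, Hoxb13, Hoxc12 and Hoxd1 had no counts in any library. Hoxb3, of the hindbrain and neck, reached 19.0 counts in primary c-Myc-low replicate 1. Hoxa10 and Hoxd3 peaked in primary c-Myc-high replicate 1 at 10.3 and 9.38 counts, and Hoxc9 in primary c-Myc-low replicate 1 at 8.69 counts. Posterior genes that reached their highest count in metastatic cells included Hoxa11, a limb and uterus gene, with 9.0 counts in c-Myc-high replicate 3, Hoxa13, of the digits and hindgut, with 2.0 counts in the same library, and Hoxd10 with 6.0 counts in c-Myc-low replicate 2. Hoxb1, Hoxc10, Hoxc11, Hoxd4, Hoxd11, Hoxd12 and Hoxd13 had at most 2.74 counts in a library.

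The Hox difference between sites ran alongside large differences in RNA of other cell types. The 15 keratinocyte markers summed to between 35.4 and 249 CPM in metastatic c-Myc-high against 46062 and 59346 CPM in primary c-Myc-high libraries, and to between 38.2 and 51.0 CPM in metastatic c-Myc-low against 20178 and 46292 CPM in primary c-Myc-low libraries. All 15 were called lower in metastatic than primary c-Myc-high cells, where 2.31% of all genes were, and 14 in c-Myc-low cells, where 1.74% were. Of these markers Flg was at 0 in the metastatic c-Myc-low group. The 12 fibroblast markers summed to between 76.3 and 917 CPM in metastatic c-Myc-high against 1873 and 3904 CPM in primary c-Myc-high libraries, and to between 358 and 1397 CPM in metastatic c-Myc-low against 2243 and 3783 CPM in primary c-Myc-low libraries. The median log2 difference of the 11 fibroblast markers tested was -2.64 in c-Myc-high cells, beside 0.38 over all genes. In c-Myc-low cells it was 0.99, beside 0.10, so the lower c-Myc-low sum did not reflect most of the markers. None of the 11 was called by edgeR. At an unadjusted p under 0.05, 2 were lower in metastatic than primary c-Myc-high and 1 in metastatic than primary c-Myc-low cells, beside 1674 and 1013 of all 16805 genes. DESeq2 called 1 lower in each class, and Twist2 was at 0 in the primary c-Myc-high group. The 12 melanocyte markers ran the other way by their sums, between 3302 and 11747 CPM in metastatic c-Myc-high against 401 and 2349 CPM in primary c-Myc-high libraries, and between 7918 and 26939 CPM in metastatic c-Myc-low against 845 and 1324 CPM in primary c-Myc-low libraries. edgeR called 0 of the 12 in the c-Myc-high comparison, where 1.65% of all genes were called higher. In the c-Myc-low comparison it called 1 higher, where 0.375% of all genes were. At an unadjusted p under 0.05, 3 and 11 were higher, beside 2736 and 1532 of all genes, and DESeq2 called 1 and 7 higher. The 10 pan-leukocyte markers summed to between 193 and 5293 CPM in metastatic c-Myc-high against 7.55 and 45.7 CPM in primary c-Myc-high libraries, and to between 440 and 3502 CPM in metastatic c-Myc-low against 10.8 and 28.6 CPM in primary c-Myc-low libraries. The 8 endothelial and lymphatic markers summed to between 73.0 and 516 CPM in metastatic c-Myc-high against 5.41 and 17.7 CPM in primary c-Myc-high libraries, and to between 171 and 565 CPM in metastatic c-Myc-low against 12.5 and 16.9 CPM in primary c-Myc-low libraries. edgeR called 1 of them higher in metastatic than primary c-Myc-high cells and 0 in the c-Myc-low comparison, where 5 were higher at an unadjusted p under 0.05, while DESeq2 called 4 and 5 higher. The part of each of these cell types in the Hox levels was not tested.

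**Figure D5:**
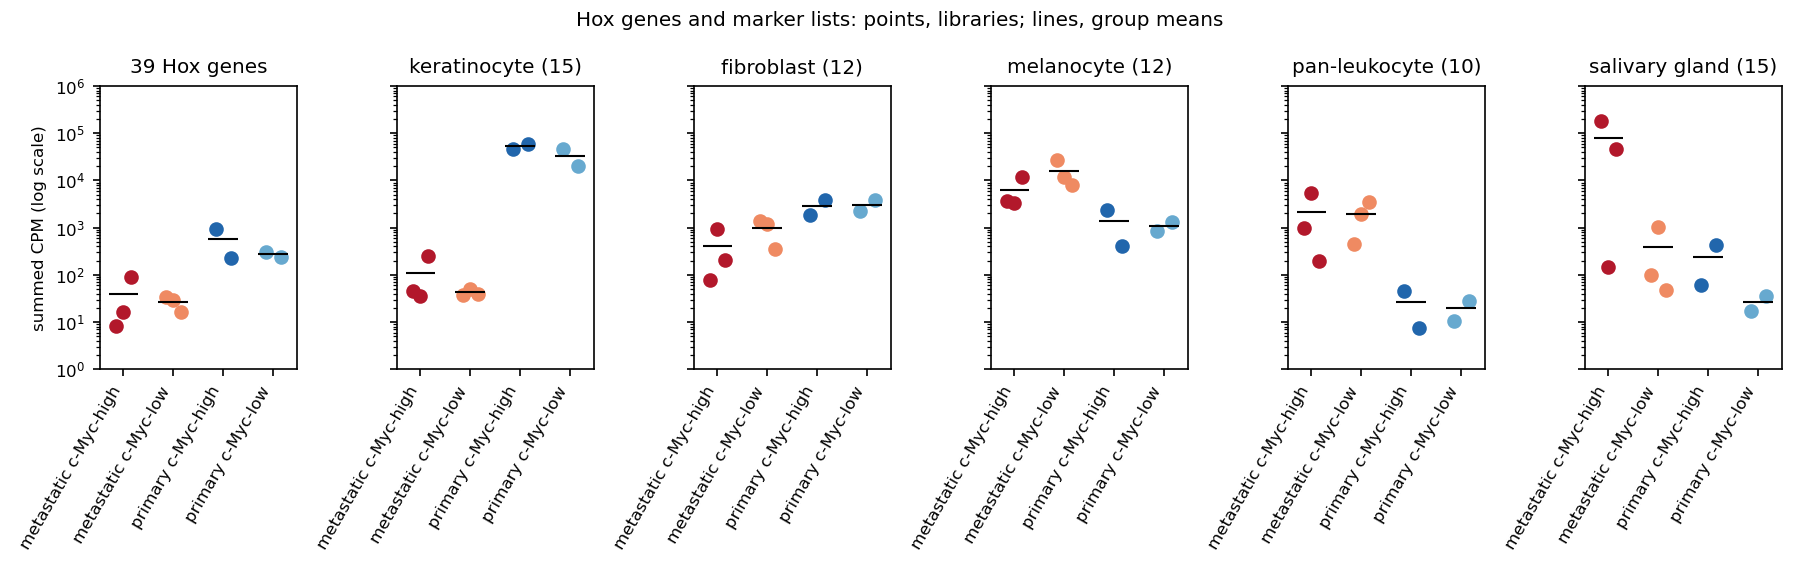
Summed CPM of the 39 Hox genes and of marker lists for 5 cell types in each library, on a logarithmic axis. Keratinocyte RNA separates the sites, at 249 CPM or less in metastatic and 20178 CPM or more in primary libraries, melanocyte and leukocyte RNA are higher in metastatic libraries, and salivary gland RNA peaks at 185619 CPM in metastatic c-Myc-high replicate 1.

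The comparison of sorted classes, which the family was not chosen on, showed no Hox gene that passed the test. Between primary c-Myc-high and primary c-Myc-low cells, edgeR called 0 of 21 Hox genes in either direction, as it called 0.0% of all 16805 genes, and the lowest adjusted p of a Hox gene was 0.419. At an unadjusted p under 0.05, 1 Hox gene was higher and 2 were lower, beside 721 and 1232 of all genes. Between the c-Myc-high and the c-Myc-low cells of metastases it again called 0 Hox genes and 0.0% of all genes, with a lowest adjusted p of 0.9998. Here 2 Hox genes were higher and 2 lower at an unadjusted p under 0.05, beside 512 and 295 of all genes. DESeq2, limma-voom and limma-trend also called no Hox gene in these comparisons. The low replication and wide spread leave intervals of several log2 units, so equal levels were not shown.

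The values of the leading genes show how wide these comparisons were. Hoxa7 was 2.56 ± 1.15 log2 units apart between primary c-Myc-high and primary c-Myc-low cells (SE; edgeR adjusted p = 0.426), with replicate 1 of the c-Myc-high group above and replicate 2 below both c-Myc-low libraries. Without primary c-Myc-high replicate 1 the difference was -0.71. In metastases, every c-Myc-high library held less Hoxa7 than every c-Myc-low library, but on 2 against 9 counts, a log2 difference of -1.004 ± 1.32 (edgeR adjusted p = 1.0). Hoxb6 differed by 2.66 ± 2.005 between the primary classes (edgeR adjusted p = 0.591) and by 3.74 ± 1.73 between the metastatic classes (edgeR adjusted p = 1.0). The metastatic value of Hoxb6 rested on c-Myc-high replicate 3 and was -0.88 without it. Hoxd9 had 3 counts in metastatic c-Myc-high against 81 in metastatic c-Myc-low cells, a ratio of 18.5-fold lower (95% counting interval 6.12 to 91.7), with overlapping libraries and an edgeR adjusted p of 1.0. Hoxb7, a trunk paralogue, had no counts in primary c-Myc-high cells against 7.61 and 19.0 CPM in primary c-Myc-low cells, at least 25.2-fold lower, with an edgeR adjusted p of 0.419.

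Counts of genes with separate libraries were close to the background. Of the 21 Hox genes, 8 (38.1%) were lower in both primary c-Myc-high than in both primary c-Myc-low libraries, where 40.2% of all genes were, and 3 (14.3%), Hoxa4, Hoxa7 and Hoxc5, were lower in all metastatic c-Myc-high than in all metastatic c-Myc-low libraries, where 14.0% of all genes were. Median log2 differences, c-Myc-high over c-Myc-low, were 0.08 over Hox genes and -0.12 over all genes in primary tumours, and -1.004 and 0.0 in metastases. The difference of the c-Myc differences between the sites was tested as an interaction. It called 0 Hox genes and 0.0% of all genes in edgeR, with a lowest Hox adjusted p of 0.725, shared by Hoxb9, Hoxc5 and Hoxc6. Their fitted interactions were 7.50 ± 3.31, -5.33 ± 2.28 and -6.92 ± 2.57 on the log2 scale, and each rests on a group at or near 0 counts. At an unadjusted p under 0.05 the interaction took 1 Hox gene above and 2 below 0, beside 796 and 354 of all genes. For Hoxa7 the interaction was -3.56 ± 1.75 (edgeR adjusted p = 0.735).

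The partners and regulators of the clusters were described from lists chosen with earlier results of these data known. Between the sites, 2736 of all 16805 genes were higher and 1674 lower in c-Myc-high cells at an unadjusted p under 0.05. In c-Myc-low cells 1532 were higher and 1013 lower. The unadjusted counts of every list below stand beside these numbers. Of the 11 TALE cofactors, 1 was called between the sites: Pknox2 averaged 15.8 ± 9.42 CPM in metastatic c-Myc-high (SD, n = 3) and 0.0683 ± 0.00307 CPM in primary c-Myc-high cells (SD, n = 2), with an edgeR adjusted p of 0.0361. The primary level is under 1 count per library, so the difference is at least 38.1-fold by summed counts (9.14-fold without primary c-Myc-high replicate 1) and the fitted value is no measured fold. At an unadjusted p under 0.05, 5 of the 11 were higher. In c-Myc-low cells edgeR called none and DESeq2 1, and 2 were higher at an unadjusted p under 0.05. The median log2 difference of the list was 1.84 in c-Myc-high and 0.84 in c-Myc-low cells, beside 0.38 and 0.10 over all genes. Of 29 tested Polycomb genes, whose products keep silent clusters silent, edgeR called none in the 4 comparisons of groups. At an unadjusted p under 0.05, 4 were higher and 2 lower in metastatic than primary c-Myc-high cells and 2 higher in metastatic than primary c-Myc-low cells, and DESeq2 called 4 higher and 1 lower in the c-Myc-high and 1 higher in the c-Myc-low comparison. The lowest adjusted p was that of Cbx6, a chromodomain reader of the repressive complex, with 27.6 ± 21.8 CPM in metastatic c-Myc-high and 0 CPM in both primary c-Myc-high libraries (edgeR adjusted p = 0.0688). Of 15 tested trithorax and H3K27 demethylase genes, Dpy30, a shared subunit of the H3K4 methyltransferase complexes, was called lower in metastatic c-Myc-high cells, at 12.3 ± 12.4 CPM, against 143 ± 147 CPM in primary c-Myc-high cells (log2 difference -3.88 ± 0.92, edgeR adjusted p = 0.0411). The Pknox2 and Dpy30 calls stood in 5 of 19 alternatives each and were lost without any 1 of 8 libraries. Between metastatic and primary c-Myc-low cells none of the 15 was called by edgeR or DESeq2 or passed an unadjusted p under 0.05. Kdm6b, which removes the Polycomb mark, averaged 495 ± 50.1 CPM in primary c-Myc-high and 88.5 ± 57.1 CPM in primary c-Myc-low cells and was not called (edgeR adjusted p = 0.419).

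The list of Cdx and retinoic acid genes covers signals upstream of the Hox clusters in the embryo, and its members do not all act in one direction. Of its 18 genes, 12 were tested. Cyp26b1, which degrades retinoic acid, was called lower in metastatic c-Myc-high cells, at 0.470 ± 0.809 CPM against 75.7 ± 71.7 CPM in primary c-Myc-high cells (edgeR adjusted p = 0.0193). Rxra, a retinoid receptor, was called lower as well, at 27.8 ± 2.45 CPM in metastatic c-Myc-high against 197 ± 60.2 CPM in primary c-Myc-high cells (edgeR adjusted p = 0.0291). Of the 12, 2 were higher and 3 lower in this comparison both by DESeq2 and at an unadjusted p under 0.05. The Cyp26b1 call was lost without metastatic c-Myc-high replicate 1 or primary c-Myc-high replicate 2. The Rxra call was lost without either primary c-Myc-low library, metastatic c-Myc-low replicate 2, or replicate 1 or 2 of metastatic c-Myc-high cells. edgeR called none of the list in c-Myc-low cells, where 2 were higher and 2 lower both by DESeq2 and at an unadjusted p under 0.05, and Rxra averaged 53.9 ± 19.8 CPM in metastatic and 253 ± 129 CPM in primary libraries (edgeR adjusted p = 0.0910). Cdx1, Cdx2 and Cdx4 were at 0 in every group. edgeR called no gene of the trunk and limb list (6 of 13 tested), of which 1 was lower in metastatic than primary c-Myc-high and 1 higher in metastatic than primary c-Myc-low cells at an unadjusted p under 0.05, and DESeq2 called 1 lower in the c-Myc-high comparison. The 13 genes summed to between 60.4 and 156 CPM in metastatic c-Myc-high against 0.415 and 27.6 CPM in primary c-Myc-high libraries. In c-Myc-low cells the sums were between 81.2 and 171 CPM in metastases against 12.9 and 23.8 CPM in primary tumours. The median log2 difference of the 6 tested was 4.33 in c-Myc-high and 2.62 in c-Myc-low cells, beside 0.38 and 0.10 over all genes. Of the head and first-arch list (6 of 18 tested) Dlx5, a jaw and limb homeobox gene, was called lower in metastatic c-Myc-low cells, at 0.0891 ± 0.154 CPM, against 64.6 ± 62.2 CPM in primary c-Myc-low cells (edgeR adjusted p = 0.0226). That call was lost without any 1 of the metastatic c-Myc-low libraries or without primary c-Myc-low replicate 1. Of this list, 2 were higher and 1 lower in metastatic than primary c-Myc-high cells, and 1 higher and 2 lower in metastatic than primary c-Myc-low cells at an unadjusted p under 0.05, and DESeq2 called 1 higher and 1 lower in the c-Myc-high and 1 higher and 2 lower in the c-Myc-low comparison.

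Genes that work beside Hoxc13 in the hair follicle did not all move one way. Of 6 tested hair shaft and sheath genes, Foxn1 and Krt75 were called lower in both classes. At an unadjusted p under 0.05, 1 was higher and 2 were lower in metastatic than primary c-Myc-high cells, and 1 was higher and 4 were lower in metastatic than primary c-Myc-low cells. DESeq2 called 1 higher and 2 lower in each class. The higher gene was in both cases Lef1, a Wnt-pathway factor that lymphocytes also express, named here after its values were seen. The summed level of the 22 genes in the table was 117, 128 and 76.5 CPM in metastatic c-Myc-high against 29.0 and 27.2 CPM in primary c-Myc-high libraries, and between 97.2 and 344 CPM in metastatic c-Myc-low against 173 and 129 CPM in primary c-Myc-low libraries. Few genes carried the metastatic sums. Rounded to whole counts, 1, 2 and 1 of the 22 had a count in metastatic c-Myc-high and 4 and 5 in primary c-Myc-high libraries. In c-Myc-low libraries 4, 5 and 3 had a count in metastases and 14 and 14 in primary tumours. In the metastatic c-Myc-high group 20 of the 22 were at 0, and Lef1 was not. Foxn1, needed for hair shaft formation, was at 0 CPM in all 3 metastatic c-Myc-high libraries, against 14.3 ± 10.2 CPM in primary c-Myc-high cells (edgeR adjusted p = 0.0223), and at 0.0720 ± 0.120 CPM in metastatic c-Myc-low against 59.1 ± 28.7 CPM in primary c-Myc-low cells (edgeR adjusted p = 0.0137). Krt75, a keratin of the follicle's companion layer, averaged 0.0313 ± 0.0542 CPM in metastatic c-Myc-high and 8.63 ± 8.68 CPM in primary c-Myc-high cells (edgeR adjusted p = 0.0336), and 0.0990 ± 0.108 CPM in metastatic c-Myc-low and 50.1 ± 25.9 CPM in primary c-Myc-low cells (edgeR adjusted p = 0.0171). The c-Myc-high calls stood in 11 of 19 alternatives for Foxn1 and 6 of 19 for Krt75, and both were lost without metastatic c-Myc-high replicate 1 or either primary c-Myc-low library. The c-Myc-low calls stood in 14 and 13 of 19, and both were lost without any 1 of the metastatic c-Myc-low libraries or without primary c-Myc-low replicate 1. Foxn1 and Krt75 are expressed by keratinocytes of the follicle, and the keratinocyte markers given above were lower in the same libraries. The part of keratinocytes in the Foxn1 and Krt75 levels, and of lymphocytes in the Lef1 level, was not tested. Of 9 non-coding genes of the Hox clusters, 1 was tested: Hoxb3os, at 5.52 ± 7.48 CPM in metastatic c-Myc-high against 5.28 ± 3.52 CPM in primary c-Myc-high cells and 5.25 ± 1.07 CPM in metastatic c-Myc-low against 11.0 ± 1.85 CPM in primary c-Myc-low cells, was not called (edgeR adjusted p = 0.998 and 0.931). It overlaps Hoxb2 and Hoxb3. In both comparisons of c-Myc-high with c-Myc-low cells, edgeR called no gene of these lists, and at an unadjusted p under 0.05 between 0 and 3 genes of a list passed in either direction. DESeq2 called 2 of the trithorax and demethylase genes higher in primary c-Myc-high than primary c-Myc-low cells and none of the other lists of partners and regulators.

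RefSeq promoter windows, 250 bases before to 50 after the start, were found for 22 of the 39 Hox genes, giving 24 windows. Their median GC content was 57.7%, against 52.7% over 32851 mouse windows. CCAAT stood in 15 Hox windows (62.5%, against 37.4% of all windows), including those of Hoxa2, Hoxa5, Hoxa6, Hoxc4 and Hoxd8. The E-box CACGTG, the core sequence that Myc and Max bind, stood in 5 (20.8%, against 7.15%), all in the Hoxd cluster: Hoxd1, Hoxd4, Hoxd10, Hoxd11 and Hoxd13, none of which reached 10 counts in a library. The only Hoxb and Hoxc windows were those of Hoxb1, Hoxb4, Hoxb8 and Hoxc4, so the clusters cannot be compared evenly. CACGTG contains the letters CG, and the median number of CG sites was 14.5 in Hox windows against 7 in all windows. The part of this difference in the E-box share was not tested. The Meis core TGACAG stood in 2 (8.33%, against 19.2%), the Pbx-Hox site TGATTNAT in 2 (8.33%, against 3.22%) and TATAAA in 4 (16.7%, against 13.6%). Both strands were searched, and no match of one motif overlapped a match of another. A match describes the letters in these windows and is not a bound site.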

How the data were processed

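RNA of the 10 libraries had been amplified before sequencing, as the labels' protocols state. Bowtie2, limma and mm10 are listed in the submitters' processing notes. Counting program, annotation release and strand setting: not given in the sources used here. The authors deposited an estimated count for each of 92214 transcripts, unscaled between libraries. The authors also deposited RPKM per transcript, scaled by length and library. Counts were summed by gene name. Deposited values under 1e-06 counts were taken as 0 (4054 values), and sums were rounded for the tests. CPM is a count scaled to a library total of 1000000. edgeR 4.0.16 in R 4.3.3 fitted the 4 groups by robust quasi-likelihood with TMM scaling to the 16805 genes kept by its filter on low counts, and p-values were adjusted by Benjamini-Hochberg. edgeR was tested on simulated data first. Levels of different genes are compared in RPKM. Alternatives used DESeq2 1.42.0 and limma 3.58.1. Folds of summed counts use a floor of 3 counts over the group where it held none, with exact 95% intervals for 1 to 3 counts. Named genes are the 3 of each cluster with the highest mean RPKM, every Hox gene called, and the called or lowest-p genes of each list; Hoxa2, Hoxb7, Hoxc13, genes among those not tested and those without overlap were added after their values were seen. One untested member is not reported here by name. The Hox family and all lists were chosen with earlier results of these data known. Gene positions follow GENCODE on GRCm38 and promoters RefSeq on GRCm38.p6.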

Additional observations from a re-analysis of the deposited data

How the results depend on the processing

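Hox genes called lower in metastatic than primary c-Myc-high cells numbered 2 in edgeR, 9 with DESeq2, 7 without the filter on low counts, 1 with limma-trend, 1 with a replicate block, 1 with only the groups compared, and between 1 and 3 with a library left out. With metastatic c-Myc-high cells reduced to replicate 2, a choice made after seeing the data that takes the spread of the lone library from the other groups, it was 0, and the Hoxa7 difference was -10.97. In c-Myc-low cells the number was 1 in edgeR, 8 with DESeq2, 14 with limma-voom, 2 with limma-trend, 2 without the filter, 9 with only the groups compared, 2 in the fit reduced to that replicate, and between 0 and 2 with a library left out (0 without metastatic c-Myc-low replicate 2 or 3). Hoxa7 was called in 18 of 19 alternatives in c-Myc-high and 17 of 19 in c-Myc-low cells, Hoxc6 in 11 of 19 in c-Myc-high cells. The cause of the lost calls was not tested. The alternatives refit the same libraries on the contrast by which the family was chosen. Their calls show how the fit depends on its settings and are no separate support. Same-numbered libraries had correlations of deviations between -0.287 and 0.149, so the numbers were not taken to pair the samples, although whether they share a tumour is not stated. A minimum of 10 counts lowered the mean number of detected Hox genes to 3 in metastatic c-Myc-high (9.33 with 1 count), 3.67 in metastatic c-Myc-low (20.7) and 11 in primary c-Myc-high libraries (18), and equal depth gave 13.6 in metastatic c-Myc-low libraries. Summed CPM put 2 paralogue classes lower in every metastatic library, not 1, and leaving out a library gave between 1 and 3. With a library left out, the log2 difference of Hoxa7 between the primary classes ran between -0.71 (without c-Myc-high replicate 1) and 3.41, and that of Hoxb6 between the metastatic classes between -0.88 (without c-Myc-high replicate 3) and 4.46, so both changed sign. DESeq2 size factors in edgeR moved the median of all genes by -0.10 in the metastatic against primary c-Myc-high comparison and by 0.12 between the primary classes, and changed the sign of no Hox gene between sites and of Hoxa3 and Hoxd8 between classes. The interaction was not run with only the groups compared. Depth limits most metastatic values of single Hox genes, which rest on under 10 counts.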
